A study of Brassica carinata and Brassica napus and Brassica carinata x Brassica napus with 3 samples.

Results

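The floral buds of an interspecific hybrid between Brassica carinata and Brassica napus were set against the arithmetic mean of the buds of both parents, the mid-parent mean, to ask which protein families stood above or below it. The hybrid library came from floral buds of a cross of these species. The parental libraries came from floral buds of B. carinata W29 and of B. napus Zhongshuang 11. All 3 were taken at the initial flowering stage. The direction and generation of the cross, the number of plants behind a library and the size of the buds were not stated in the labels, so bud stage, growing conditions and genotype cannot be told apart. Each group was 1 library, so the differences below have no replicate check, no test was run, and every ratio describes these 3 libraries only. The table held 157663 assembled sequences, measured in RPKM (reads per kilobase of sequence, scaled by the library's total reads). Sequences with the same best Swiss-Prot entry were summed into 1 unit where the Swiss-Prot alignment score was at least 0.6 of the score against the general protein database. This gave 10565 units, of which 8115 had 5 RPKM or more in the hybrid or in the mid-parent mean and are described here.

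For nuclear genes, the mid-parent mean is the level expected of a hybrid whose expression is additive. Its gene copies then each keep the activity they had in the parent they came from. Organelle genes need not come from both parents, so the mean is no such expectation for them. B. carinata and B. napus are both allotetraploids that share the C genome, and the second genome is B in B. carinata and A in B. napus. A hybrid can match the mean, match 1 parent (often called dominance of that parent's level), or lie outside both parents (transgressive expression). In floral buds much of the RNA comes from anthers, where the tapetum feeds the developing pollen and builds its coat, and where the pollen itself stores transcripts for germination and tube growth. With whole buds, fewer cells of a type and less RNA per cell cannot be told apart.

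The ratio is given as log2 of hybrid over mid-parent mean after 1 RPKM was added to both, so that 1 stands for 2-fold above the mean and -1 for 2-fold below. The scale is not symmetric in what it takes to reach each end. A hybrid 2-fold above the arithmetic mean exceeds the sum of both parents, whereas a hybrid that takes the level of the lower parent lies far below the mean wherever the parents differ widely. The lowest levels let in were those of CML41, a calmodulin-like protein with a mid-parent mean of 5.0025 RPKM, and CYP71B35, a cytochrome P450 with 5.01 RPKM in the hybrid. The nearest units left out were CDC48D, a cell division ATPase with 4.998 RPKM in the hybrid, and CAF1-5, a deadenylase subunit with a mid-parent mean of 4.999 RPKM.

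The buds carried the transcripts of floral organ identity in all 3 libraries. APETALA 3, the petal and stamen gene, had 251.5 RPKM in the hybrid, against 350.0 in B. carinata and 195.7 in B. napus. AGAMOUS, the stamen and carpel gene, had 103.1 RPKM in the hybrid, against 95.7 in B. napus and 129.5 in B. carinata. The hybrid library held 27.1 M counted reads, against 28.2 M in B. napus and 28.1 M in B. carinata. The units took 62.6% of the reads in the hybrid, against 61.2% in B. carinata and 63.8% in B. napus. Markers of single tissues did differ between the libraries. Of 6 tapetal markers, CYP703A2 had no unit and the other 5 were below the mid-parent mean, with log2 ratios between -0.64 and -1.37 and with B. carinata highest. The tapetal transcript A9 had 853.3 RPKM in the hybrid, against 3665 in B. carinata and 729.1 in B. napus. CWINV4, the nectary invertase, had 3.67 RPKM in the hybrid, against 6.42 in B. carinata and 59.95 in B. napus. Chlorophyll a-b binding proteins, made in green sepals, summed to 4074 RPKM in the hybrid, against 5759 in B. napus and 4990 in B. carinata. Another green tissue marker, the RuBisCO small chains, summed to 2279.9 RPKM in the hybrid, against 1762 in B. napus and 2829.9 in B. carinata (log2 ratio -0.01). The part that these differences in tissue markers play in the ratios below was not tested.

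Most units lay near the mid-parent mean. The median log2 ratio was -0.05, with quartiles at -0.29 and 0.17. Within 2-fold of the mean were 7552 units (93.1%), and 6448 (79.5%) lay within 0.5 on the log2 scale. Units at least 2-fold below the mean numbered 503 (6.2%), and units at least 2-fold above it numbered 60 (0.739%). The hybrid lay at least 2-fold below both parents for 98 units (1.21%) and at least 2-fold above both for 21 (0.259%). With TMM scaling, 53 lay below both and 52 above both, and 176 lay at least 2-fold above the mean. With no margin, it was below both for 1779 units (21.9%), between them for 4661 (57.4%) and above both for 1675 (20.6%). Ratios under 0 made up 55.5% of all units. By level, 9.12% of units between 5 and 10 RPKM were at least 2-fold below the mean, 7.16% of those between 10 and 20, 5.50% of those between 20 and 50, 3.57% of those between 50 and 200, and 6.37% of those of 200 RPKM or more.

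The low units were sorted by position against each parent, on the same log2 scale with 1 RPKM added. For 201 of the 503, the hybrid was within 2-fold of B. carinata and at least 2-fold below B. napus, with median levels of 2.19 RPKM in the hybrid, against 2.80 in B. carinata and 29.6 in B. napus. For 133, it was within 2-fold of B. napus and at least 2-fold below B. carinata, with median levels of 5.76 RPKM in the hybrid, against 6.76 in B. napus and 32.1 in B. carinata. The 98 units below both parents had medians of 3.67 RPKM in the hybrid, against 19.9 in B. napus and 15.7 in B. carinata. The other 71 lay between the parents and at least 2-fold from each. The deepest shortfalls were among units at the B. carinata level, of which 58 had a log2 ratio of -3 or lower, and none of those at the B. napus level did. The choice of an arithmetic mean sets part of this picture: with the geometric mean of the parents, 301 units lay at least 2-fold below and 202 above. The ratio of read totals, which does not weigh a read by sequence length, lay on the same side of the mean for all 503 low and all 60 high units. The 95% interval of the read ratio (exact binomial, counting error only, reads without molecular identifiers) lay wholly at or beyond 2-fold for 419 of the 503 low units and 42 of the 60 high ones.

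**Figure D1:**
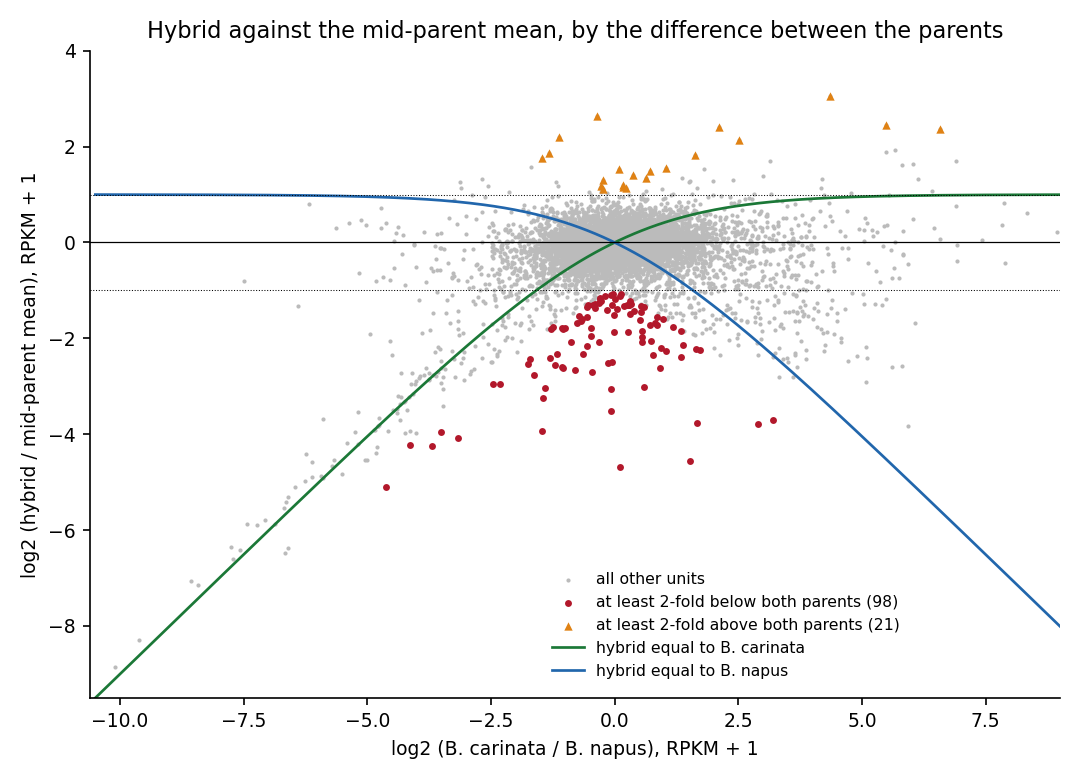
Each point is 1 of 8115 units, with log2 of B. carinata over B. napus on the x axis and log2 of hybrid over mid-parent mean on the y axis (RPKM + 1). The green and blue curves mark a hybrid equal to B. carinata and to B. napus, dotted lines mark 2-fold, and the 98 red and 21 orange units lie at least 2-fold outside both parents. The low arm at the left follows the green curve.

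Parental differences gave the frame for these positions. Among 953 units at least 2-fold higher in B. napus than in B. carinata, 212 lay at least 2-fold below the mean and 12 above it, and the median log2 ratio was -0.29. Among 1384 units at least 2-fold higher in B. carinata, 177 lay below and 30 above, with a median of -0.05. The hybrid was within 2-fold of B. carinata alone for 33.7% of the first group and 37.3% of the second. It was within 2-fold of B. napus alone for 21.9% of the first group and 15.97% of the second. The 5778 units whose parents were within 2-fold of each other still included 114 low and 18 high ones.

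Protein families were taken from the product names, and 107 of them had a measured unit. The ranking covers 92, without 9 families of fewer than 6 units and 7 added after values were seen, 1 of which falls under both. Of the 92, medians under 0 were found for 66 and over 0 for 26. A median at least 0.2 below that of all units was found for 16 families and at least 0.2 above it for 10. In 74 of the 92, no unit lay 2-fold above the mean. The lowest medians among the 92 were those of defensins, lipid-transfer proteins and oleosins, and the highest those of histones, aquaporins and metallothioneins.

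**Figure D2:**
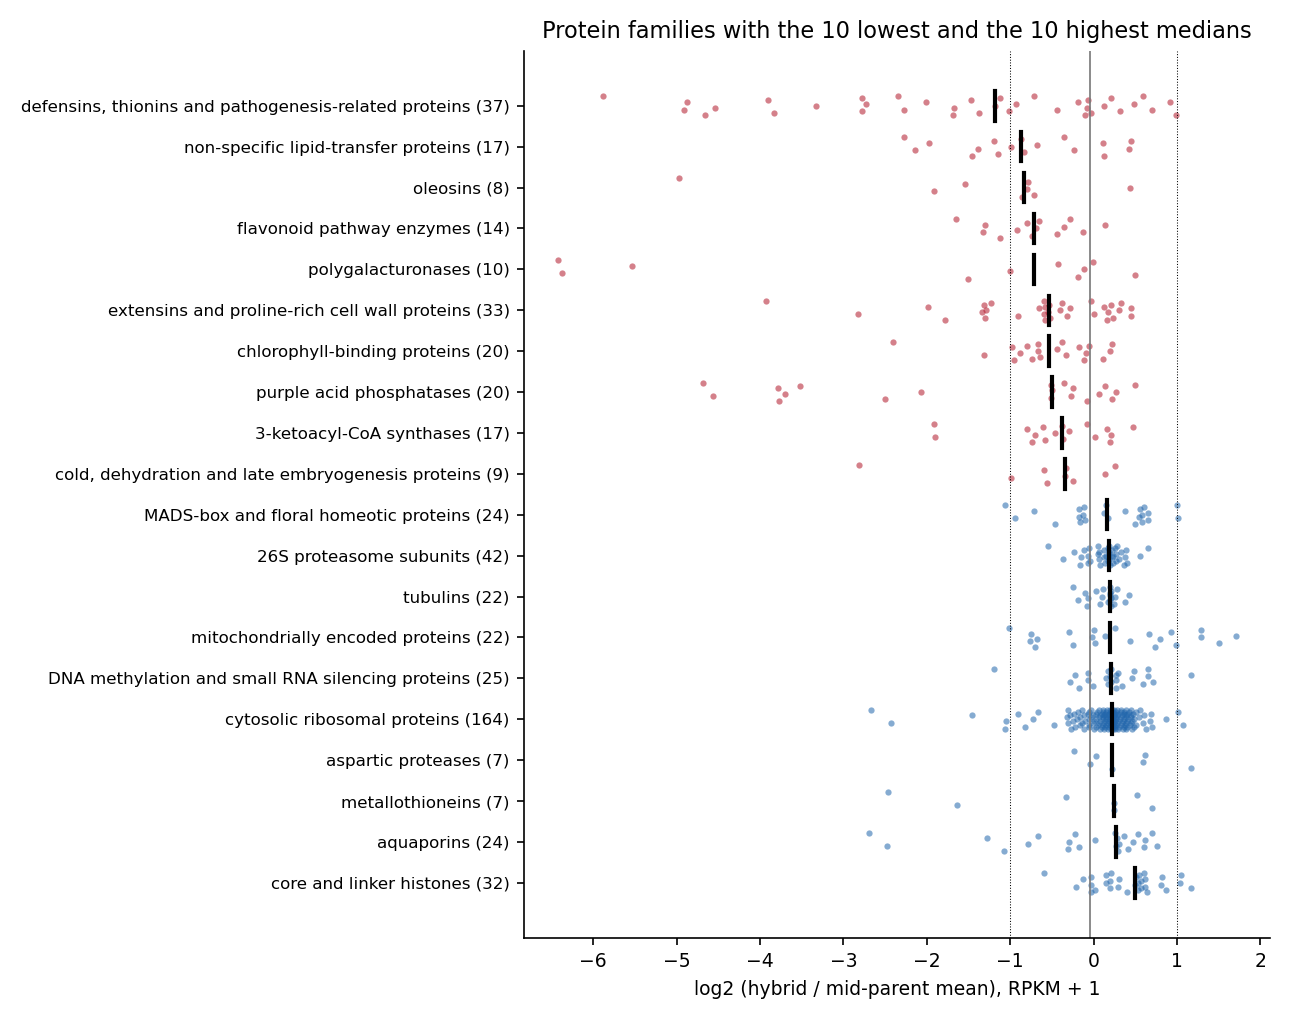
Each point is a unit, placed by log2 of hybrid over mid-parent mean (RPKM + 1) on the x axis, for the 10 ranked families with the lowest medians (red) and the 10 with the highest (blue), with the number of units in brackets. Black bars are family medians, the grey line is the median of all units (-0.05) and dotted lines mark 2-fold. The low families carry long tails to the left, and aquaporins and metallothioneins, among the high families, also hold units far to the left.

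Defensins, thionins and pathogenesis-related proteins had the lowest median of the 92 ranked families, -1.18 over 37 units. These are small secreted, often cysteine-rich peptides and proteins of defence and cell-to-cell signalling. At least 2-fold below the mean were 21 of 37 (6.2% over all units), and 17 of the 21 were within 2-fold of B. carinata. Defensin-like protein 232 (SCRL23) had 0.64 RPKM in the hybrid, against 0.11 in B. carinata and 190.5 in B. napus, a log2 ratio of -5.88. Putative defensin-like protein 251 (SCRL12) had 0.40 RPKM in the hybrid, against 0.38 in B. carinata and 81.8 in B. napus (-4.91). Defensin-like proteins 147 (LCR1) and 230 (SCRL24) showed the same order. LCR1 had 0.06 RPKM in the hybrid, against 0 in B. carinata and 60.3 in B. napus, and SCRL24 had 0.06 RPKM in the hybrid, against 0 in B. carinata and 51.5 in B. napus. Their ratios were -4.88 and -4.65. Not every member followed B. carinata: PDF2.4, a plant defensin, had 75.3 RPKM in the hybrid, against 69.5 in B. napus and 545.1 in B. carinata (-2.02). The family's summed level was not below the mean. It was 11769 RPKM in the hybrid, against 9764 in B. carinata, 12774.5 in B. napus and a mid-parent mean of 11269. The family median was -0.45 with the name patterns as first written, -0.56 with a Swiss-Prot score ratio of 0.8 and -0.59 with no minimum level beyond 1 read.

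Pectin-degrading enzymes held several of the lowest ratios of all units. Polygalacturonases and pectinesterases loosen the pectin of cell walls, and many members act in pollen and the growing pollen tube. Of 10 polygalacturonases, 4 lay at least 2-fold below the mean (40%, against 6.2% over all units), with a median of -0.71. The Brassica napus polygalacturonase entry had 7.61 RPKM in the hybrid, against 6.73 in B. carinata and 1466 in B. napus, a log2 ratio of -6.42 and a read ratio of 0.00611 with a 95% interval of 0.00512 to 0.00725. Exopolygalacturonase PGA3 had 4.65 RPKM in the hybrid, against 8.53 in B. carinata and 927.5 in B. napus (-6.38). Exopolygalacturonase clone GBGA483 had 0.18 RPKM in the hybrid, against 0.06 in B. carinata and 107.6 in B. napus (-5.54). QRT3, which separates the microspores of a tetrad, went the other way between the parents. It had 23.3 RPKM in the hybrid, against 109.2 in B. carinata and 27.1 in B. napus (-1.51), so here the hybrid stood at the B. napus level. Among 27 pectinesterases and inhibitors, 7 were low (25.9%, against 6.2% over all units), 5 of them at the B. carinata level. PME5 had 1.16 RPKM in the hybrid, against 2.78 in B. carinata and 381.7 in B. napus (-6.48). BP19 had 1.09 RPKM in the hybrid, against 336.8 in B. napus and 0.55 in B. carinata (-6.34). The family median of the pectinesterases was -0.13.

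Single members of other families known from mature pollen were as low, in families whose medians lay near that of all units. AGP23, an arabinogalactan peptide of pollen, had 21.6 RPKM in the hybrid, against 17.1 in B. carinata and 1766 in B. napus (-5.30). FLA14, a fasciclin-like arabinogalactan protein, had 0 reads in the hybrid, against 1.67 RPKM in B. carinata and 64.7 in B. napus, which was at least 327-fold lower than the mean with a floor of 3 reads for the hybrid library. In all, 8 of 37 arabinogalactan proteins were low (21.6%, against 6.2% over all units), 6 of them at the B. carinata level. The family median was -0.11. STP9, a pollen monosaccharide transporter, had 0.09 RPKM in the hybrid, against 0 in B. carinata and 209.8 in B. napus (-6.60). BP4C, a Brassica napus pollen protein, had 0.50 RPKM in the hybrid, against 0.23 in B. carinata and 422.1 in B. napus (-7.14). RALF-like peptides are secreted signals, some of which act between pollen tube and pistil. Low ratios were found for 5 of 14 (35.7%, against 6.2% over all units). RALFL4 had 0.22 RPKM in the hybrid, against 0.21 in B. carinata and 42.8 in B. napus (-4.21). RALFL17 had 0.69 RPKM in the hybrid, against 78.3 in B. napus and 0.14 in B. carinata (-4.57). The RALF median was -0.20 and turned to 0.15 with trimmed-mean (TMM) scaling, under which the median of all units was 0.26.

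All 7 low units among the 51 actin cytoskeleton proteins (13.7%, against 6.2% over all units) stood at the B. carinata level. The Brassica napus actin-depolymerizing factor entry had 0.53 RPKM in the hybrid, against 1.41 in B. carinata and 44.4 in B. napus (-3.97). Profilin-4, an actin monomer binder, had 0.25 RPKM in the hybrid, against 30.0003 in B. napus and 0.53 in B. carinata (-3.70). The family median was -0.06. Among 36 proton and calcium pumps, VHA-G3, a vacuolar proton pump subunit, had 0.93 RPKM in the hybrid, against 0.07 in B. carinata and 80.2 in B. napus (-4.41). AHA6, a plasma membrane proton pump, had 0.38 RPKM in the hybrid, against 55.5 in B. napus and 0.99 in B. carinata (-4.40). The median of the pumps was 0.02 and 3 of the 36 were low (8.33%, near the 6.2% over all units). WRKY42 and WRKY31 were the lowest of 30 WRKY transcription factors, of which 5 were low (16.7%). WRKY42 had 0.36 RPKM in the hybrid, against 0.22 in B. carinata and 23.4 in B. napus (-3.23). WRKY31 had 0.36 RPKM in the hybrid, against 0.14 in B. carinata and 22.8 in B. napus (-3.20).

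Xyloglucan endotransglucosylase XTH3 and beta-galactosidases, enzymes that trim wall polysaccharides, also included units at the B. carinata level. XTH3 had 1.65 RPKM in the hybrid, against 118.1 in B. napus and 2.68 in B. carinata (-4.53). The Brassica oleracea beta-galactosidase entry had 0.35 RPKM in the hybrid, against 0.04 in B. carinata and 90.9 in B. napus (-5.10). Of 15 beta-galactosidases, 5 were low (33.3%, against 6.2% over all units), 3 at the B. carinata level and 2 below both parents. The family median was -0.23 but 0.06 with TMM scaling. Expansins, which loosen walls, had 3 low units of 16 (18.75%, against 6.2% over all units), all at the B. carinata level. EXPA5 had 6.58 RPKM in the hybrid, against 7.31 in B. carinata and 58.0 in B. napus (-2.15).

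A small set of secondary wall genes shared this position, chosen as a set after the values were seen. In Arabidopsis, MYB46 and NAC066 are regulators of secondary wall formation, which in anthers thickens the endothecium before opening. MYB46 had 0.39 RPKM in the hybrid, against 0.26 in B. carinata and 16.1 in B. napus (-2.73). NAC066 had 0.82 RPKM in the hybrid, against 0.44 in B. carinata and 11.0 in B. napus (-1.89). Laccase-4, which polymerises lignin, had 2.62 RPKM in the hybrid, against 33.5 in B. napus and 5.09 in B. carinata (-2.49). The secondary wall cellulose synthase CESA7 had 3.36 RPKM in the hybrid, against 4.89 in B. carinata and 18.5 in B. napus (-1.54), whereas CESA8 did not reach 2-fold (6.04 RPKM in the hybrid, against 8.41 in B. carinata and 13.8 in B. napus, -0.78). IRX9, a xylan synthesis enzyme, had 0.05 RPKM in the hybrid, against 0.12 in B. carinata and 11.1 in B. napus (-2.65). Cellulose synthases and their relatives as a family had a median of -0.20 with 1 low unit of 15 (6.67%, near the 6.2% over all units).

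**Figure D3:**
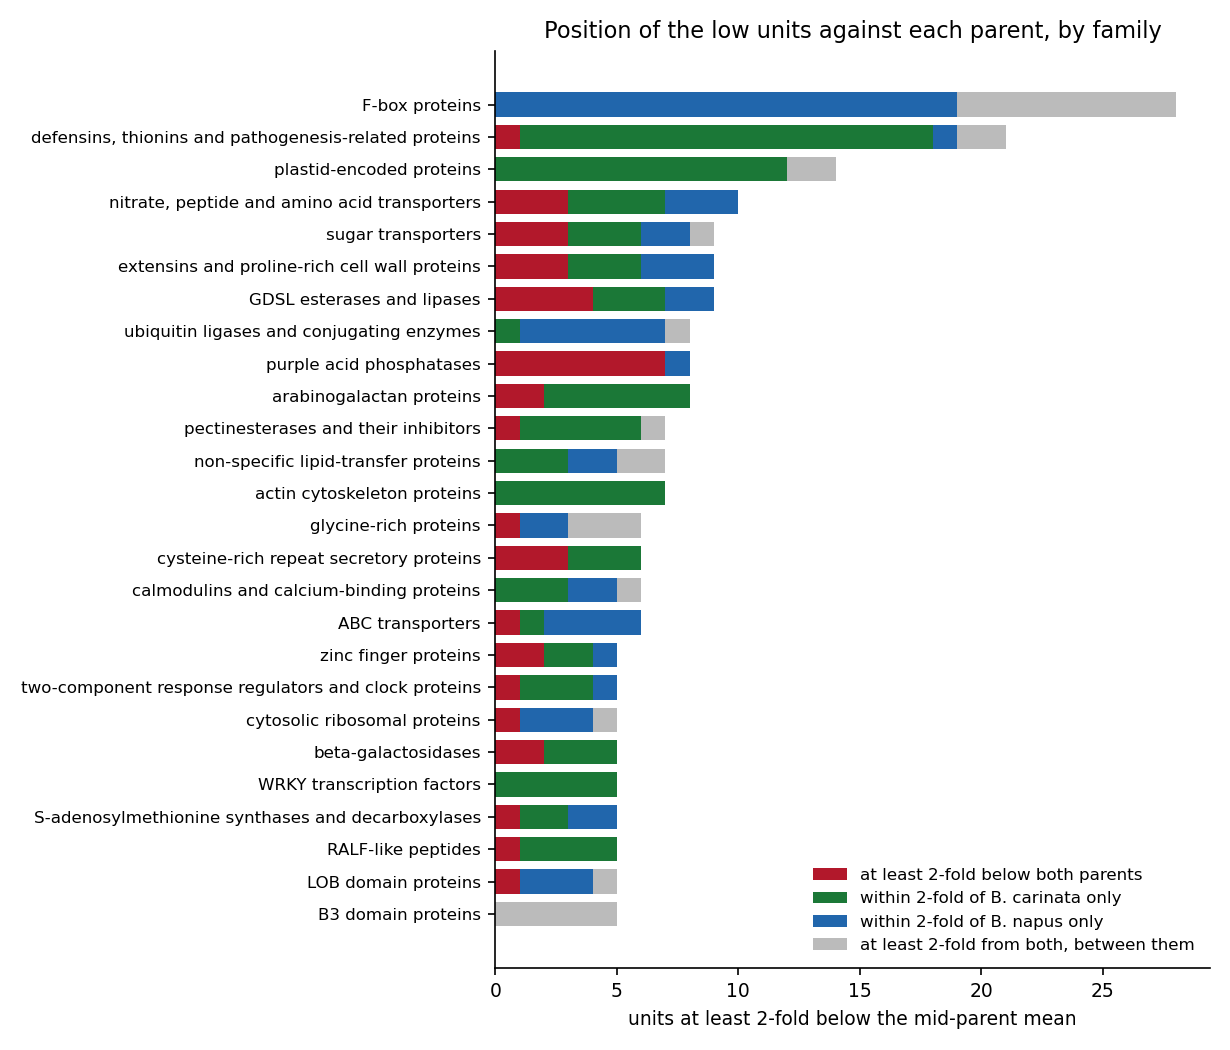
Bars count the units at least 2-fold below the mid-parent mean in the 26 families with 5 or more of them, split by where the hybrid lay against each parent. Purple acid phosphatases are almost wholly below both parents (7 of 8), defensins and actin proteins mostly at the B. carinata level, and F-box proteins mostly at the B. napus level.

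Purple acid phosphatases were low mainly below both parents: 7 of 20 units lay at least 2-fold below each parent (1.21% over all units), out of 8 below the mean (6.2% over all units). These metal-containing enzymes release phosphate from organic esters. The family median was -0.50, but -0.18 with TMM scaling and -2.50 with a minimum of 20 RPKM. PAP5 had 2.18 RPKM in the hybrid, against 83.7 in B. carinata and 78.0 in B. napus (-4.68), with a read ratio of 0.0276 and a 95% interval of 0.0178 to 0.0409. PAP6 had 14.2 RPKM in the hybrid, against 532.0 in B. carinata and 184.3 in B. napus (-4.56). In both cases the parents were high and the hybrid was low. PAP14 had 2.25 RPKM in the hybrid, against 78.3 in B. carinata and 9.70 in B. napus (-3.79), and PAP11 had 6.49 RPKM in the hybrid, against 154.4 in B. carinata and 48.1 in B. napus (-3.77). PAP19, PAP25 and PAP17 completed the set below both parents, with ratios of -3.70, -3.52 and -2.07. PAP24 was the exception at the B. napus level, with 14.6 RPKM in the hybrid, against 13.4 in B. napus and 161.6 in B. carinata (-2.50). The other 12 members lay within 2-fold of the mean, and the family's summed level was 275.4 RPKM in the hybrid, against 677.9 in B. napus and 1375 in B. carinata.

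The remaining units below both parents included several anther transcripts, named here after their values were seen. PAB5, a poly(A)-binding protein of reproductive organs, had 32.4 RPKM in the hybrid, against 147.3 in B. carinata and 394.7 in B. napus (-3.03). STP2, a monosaccharide transporter of early pollen, had 3.42 RPKM in the hybrid, against 42.1 in B. carinata and 27.6 in B. napus (-3.02). LBD27, a LOB domain regulator needed for microspore division in Arabidopsis, had 1.01 RPKM in the hybrid, against 26.8 in B. napus and 9.21 in B. carinata (-3.24). The next ones come from the pollen coat, the tapetum and the pollen tube. EXL4, a GDSL lipase of the pollen coat, had 50.2 RPKM in the hybrid, against 155.4 in B. carinata and 383.3 in B. napus (-2.40). TSM1, a tapetum-specific methyltransferase, had 53.0 RPKM in the hybrid, against 252.9 in B. carinata and 110.3 in B. napus (-1.76). RABA4d, a small GTPase of pollen tube growth, had 2.04 RPKM in the hybrid, against 17.3 in B. carinata and 8.53 in B. napus (-2.19). JAR1, which conjugates jasmonate to its active form, had 6.19 RPKM in the hybrid, against 25.1 in B. carinata and 17.3 in B. napus (-1.63). ARR6, a cytokinin response regulator, had 6.31 RPKM in the hybrid, against 15.4 in B. carinata and 33.3 in B. napus (-1.79).

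Of the 7 families added after values were seen, some also lay low, but not all. Tetraspanins had a median of 0.20 over 11 units, with 8 over 0 and 2 low (18.2%, against 6.2% over all units). The median of B3 domain proteins, described below, was -0.0003. Of 4 dehydrodolichyl diphosphate synthases, which make polyprenyl chains, 3 were at least 2-fold below both parents (1.21% over all units). DDPS6 was not (12.2 RPKM in the hybrid, against 13.7 in B. carinata and 8.41 in B. napus). DDPS8 had 25.8 RPKM in the hybrid, against 100.2 in B. carinata and 55.1 in B. napus (-1.55). Cysteine-rich repeat secretory proteins had 6 low units of 11 (54.5%, against 6.2% over all units) and a median of -1.09. CRRSP18 had 200.2 RPKM in the hybrid, against 732.9 in B. carinata and 743.4 in B. napus (-1.88). CRRSP34 had 0 reads in the hybrid, against 1.72 RPKM in B. carinata and 34.1 in B. napus, at least 70.3-fold lower than the mean. S-adenosylmethionine synthases and decarboxylases had 5 low units of 16 (31.25%, against 6.2% over all units) and a median of -0.57. SAMDC2, of polyamine synthesis, had 3.49 RPKM in the hybrid, against 10.6 in B. carinata and 57.0 in B. napus (-2.95).

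Non-specific lipid-transfer proteins, which carry lipids across the cell wall, had a median of -0.87 over 17 units. Of these, 7 were low (41.2%, against 6.2% over all units) and 13 lay under 0 (55.5% over all units). LTP12, a tapetal lipid-transfer protein, was the most abundant low unit of the family. It had 3211 RPKM in the hybrid, against 12445 in B. carinata and 5243 in B. napus (-1.46). LTP11 had 79.7 RPKM in the hybrid, against 71.0 in B. carinata and 703.7 in B. napus (-2.27). LTP13 likewise stood at the B. carinata level, with 3.80 RPKM in the hybrid, against 31.6 in B. napus and 4.16 in B. carinata (-1.98). The unit of the Prunus armeniaca entry for LTP2 stood at the B. napus level, with 8.51 RPKM in the hybrid, against 70.5 in B. carinata and 11.7 in B. napus (-2.15). Oleosins coat lipid bodies, and the glycine-rich ones of the tapetum end up in the pollen coat. LTP12 and the tapetal markers given above were highest in B. carinata, whereas LTP11 and the 4 oleosins named next were highest in B. napus. The part of tapetal RNA in these ratios was not tested. The oleosin median was -0.83 over 8 units, with 3 low (37.5%, against 6.2% over all units). OlnB2 had 208.9 RPKM in the hybrid, against 460.1 in B. carinata and 755.5 in B. napus (-1.54), below both parents. OlnB1 had 409.4 RPKM in the hybrid, against 525.4 in B. carinata and 963.6 in B. napus (-0.86). GRP17, a pollen coat oleosin, had 18.6 RPKM in the hybrid, against 141.5 in B. napus and 3.63 in B. carinata (-1.91). The unit of the Prunus dulcis oleosin entry was nearly silent outside B. napus, with 0.36 RPKM in the hybrid, against 0.10 in B. carinata and 83.0 in B. napus (-4.97).

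Extensins and proline-rich cell wall proteins had a median of -0.54 over 33 units, 9 of them low (27.3%, against 6.2% over all units). Of the 9, 3 were below both parents, 3 at the B. carinata level and 3 at the B. napus level. APG, an anther-specific proline-rich protein, had 324.0 RPKM in the hybrid, against 747.2 in B. carinata and 1493 in B. napus (-1.79). PRP2 had 81.9 RPKM in the hybrid, against 557.3 in B. carinata and 99.4 in B. napus (-1.99). LRX7 had 0.17 RPKM in the hybrid, against 14.6 in B. napus and 0 in B. carinata (-2.83). The Sorghum extensin entry was below both, with 0.14 RPKM in the hybrid, against 8.21 in B. carinata and 24.4 in B. napus (-3.93). GDSL esterases and lipases had 9 low units of 54 (16.7%, against 6.2% over all units) and a median of -0.22. 3-ketoacyl-CoA synthases, which lengthen fatty acids for waxes and cutin, had a median of -0.38 over 17 units. Of these, 2 were low (11.8%, against 6.2% over all units). KCS7 had 10.8 RPKM in the hybrid, against 65.3 in B. carinata and 20.9 in B. napus (-1.90). KCS20 had 5.12 RPKM in the hybrid, against 38.2 in B. carinata and 5.92 in B. napus (-1.91). KCS6 and KCS3 lay within 2-fold of the mean, at -0.80 and -0.74.

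Flavonoid pathway enzymes had 13 of 14 units under 0 (55.5% over all units) and a median of -0.71. At least 2-fold low were 4 of the 14 (28.6%, against 6.2% over all units). The unit of the Equisetum chalcone synthase entry, the first enzyme of the pathway, had 0.96 RPKM in the hybrid, against 9.64 in B. carinata and 0.67 in B. napus (-1.65). 3AT1, which acylates anthocyanins, had 1.91 RPKM in the hybrid, against 11.98 in B. carinata and 0.38 in B. napus (-1.30). For the synthase the hybrid stood at the B. napus level, and for 3AT1 between the parents. DFRA, dihydroflavonol reductase, had 2.42 RPKM in the hybrid, against 5.93 in B. carinata and 6.98 in B. napus (-1.13), but its ratio was 0.04 when entries with the same product name were summed. The unit of the Petroselinum flavanone 3-dioxygenase entry had 19.7 RPKM in the hybrid, against 0.20 in B. carinata and 101.5 in B. napus (-1.32). It lay between widely spaced parents, and against their geometric mean its ratio was 0.90. The name pattern of the family missed a pair of other entries for this enzyme. F3H of Arabidopsis had 7.40 RPKM in the hybrid, against 6.40 in B. napus and 0 in B. carinata (1.0002), and FHT of Matthiola incana had 108.4 RPKM in the hybrid, against 126.9 in B. napus and 204.1 in B. carinata (-0.61). An enzyme and a regulator of anther development stood between the parents, with B. carinata high. 4CLL1, a ligase of sporopollenin synthesis, had 57.4 RPKM in the hybrid, against 262.2 in B. carinata and 14.5 in B. napus (-1.26). bHLH91, an anther regulator, had 19.2 RPKM in the hybrid, against 6.77 in B. napus and 107.6 in B. carinata (-1.53).

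**Figure D4:**
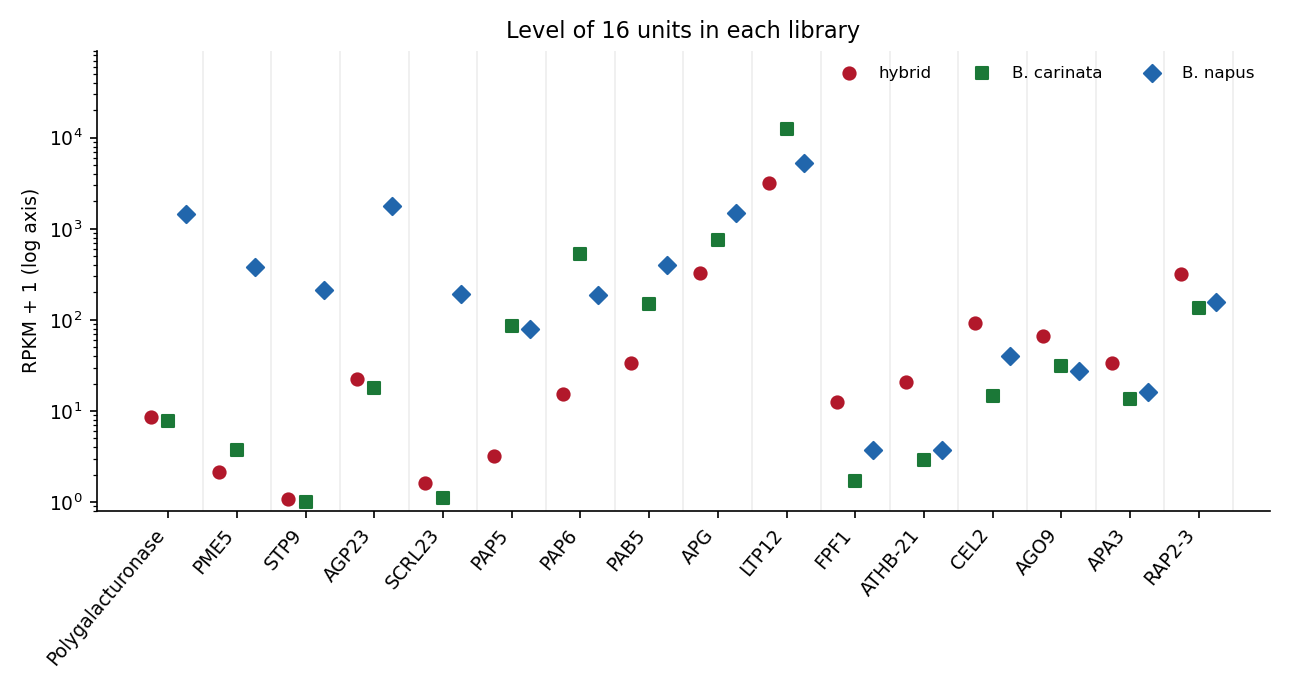
The level of 16 units in each library is plotted as RPKM + 1 on a log axis (red circles hybrid, green squares B. carinata, blue diamonds B. napus). The 5 units at the left are high in B. napus alone, the next 5 are lower in the hybrid than in either parent, and the last 6 are higher in the hybrid than in either parent.

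Membrane transporters also held low members. Nitrate, peptide and amino acid transporters had 10 low units of 57 (17.5%, against 6.2% over all units) and a median of -0.13. LHT2, an amino acid transporter of the tapetum in Arabidopsis, lay below both parents, with 23.5 RPKM in the hybrid, against 87.7 in B. carinata and 130.3 in B. napus (-2.17). OPT9, an oligopeptide transporter, had 1.63 RPKM in the hybrid, against 20.3 in B. carinata and 10.2 in B. napus (-2.63). Sugar transporters had 9 low units of 46 (19.6%) and a median of -0.22, with STP9 and STP2 among the low ones. ABC transporters, which export lipids among other cargoes, had 6 low units of 74 (8.11%, near the 6.2% over all units) and a median of -0.16. ABCG9, which takes part in pollen coat formation in Arabidopsis, had 10.9 RPKM in the hybrid, against 48.0 in B. carinata and 28.9 in B. napus (-1.73). MTP1, a vacuolar zinc transporter, stood between the parents. It had 106.6 RPKM in the hybrid, against 985.9 in B. carinata and 51.2 in B. napus (-2.27), but its ratio was -0.10 over sequences found in all 3 libraries.

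Several other phosphate and membrane lipid transcripts lay below both parents, chosen after their values were seen. SPX1, a sensor of phosphate status, had 11.1 RPKM in the hybrid, against 27.5 in B. carinata and 44.0 in B. napus (-1.61). MGD3, which makes galactolipids, had 2.94 RPKM in the hybrid, against 10.2 in B. carinata and 10.4 in B. napus (-1.52). PLDalpha2, a phospholipase, had 21.7 RPKM in the hybrid, against 88.3 in B. carinata and 137.5 in B. napus (-2.33). GPAT6, an acyltransferase of cutin synthesis, was likewise below both, with 72.1 RPKM in the hybrid, against 176.6 in B. carinata and 183.9 in B. napus (-1.31). Phosphate and sulfate transporters as a family had 4 low units of 23 (17.4%, against 6.2% over all units), none of them below both parents. Their median was -0.08.

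The units named from the next families had B. carinata as the higher parent, with the hybrid within 2-fold of B. napus or between the parents. F-box proteins are the substrate receptors of a large class of ubiquitin ligases. They gave the largest number of low units, 28 of 240 (11.7%, against 6.2% over all units), with no unit at the B. carinata level, 19 at the B. napus level and 9 in between. The family median was -0.15. F-box/kelch-repeat protein At5g49000 had 2.60 RPKM in the hybrid, against 29.0 in B. carinata and 5.81 in B. napus (-2.35). F-box protein At5g10340 had 2.31 RPKM in the hybrid, against 23.8 in B. carinata and 2.38 in B. napus (-2.09). Ubiquitin ligases and conjugating enzymes had 8 low units of 165 (4.85%, under the 6.2% over all units), 6 of them at the B. napus level. ARI11 had 0.44 RPKM in the hybrid, against 15.2 in B. carinata and 0.26 in B. napus (-2.60). B3 domain proteins, a class of DNA-binding regulators, had 5 low units of 41 (12.2%, against 6.2% over all units), all between the parents. B3 domain-containing protein At2g31720 had 1.61 RPKM in the hybrid, against 0 in B. napus and 17.5 in B. carinata (-1.90). The B3 median was -0.0003, and it was 0.33 with TMM scaling and -0.14 with median-of-ratios scaling. LOB domain proteins had 5 low units of 15 (33.3%, against 6.2% over all units) and a median of -0.29. LBD7 had 2.17 RPKM in the hybrid, against 17.5 in B. carinata and 3.62 in B. napus (-1.86). NAC006 had 1.31 RPKM in the hybrid, against 32.7 in B. carinata and 0 in B. napus (-2.91). GASA10, a gibberellin-regulated peptide, had 7.66 RPKM in the hybrid, against 101.3 in B. carinata and 1.09 in B. napus (-2.59). PHT1-5, a phosphate transporter, had 3.03 RPKM in the hybrid, against 39.7 in B. carinata and 1.78 in B. napus (-2.43), but a read ratio of 0.461 with a 95% interval of 0.349 to 0.601.

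Green tissue and stress families closed the low end. Chlorophyll-binding proteins capture light for the photosystems, and 17 of 20 units lay under 0, with a median of -0.54. LHCA1 had 43.1 RPKM in the hybrid, against 71.2 in B. carinata and 101.1 in B. napus (-0.98). LHCA4 had 65.2 RPKM in the hybrid, against 116.3 in B. carinata and 138.6 in B. napus (-0.96). Neither reached 2-fold, and both were lower in the hybrid than in either parent. The 2 units past 2-fold rested on maize entries with 0 RPKM in B. napus: CAB-M9 had 0.14 RPKM in the hybrid, against 10.1 in B. carinata, and CAB1 had 7.72 RPKM in the hybrid, against 41.3 in B. carinata. Their ratios were -2.41 and -1.31, and that of CAB1 was 0.42 against the geometric mean. RuBisCO and Calvin cycle enzymes showed 9 of 10 units under 0 but none past 2-fold (median -0.11). Cold, dehydration and late embryogenesis proteins had a median of -0.35 over 9 units, which was 0.02 with TMM scaling and 0.02 with the patterns as first written. ERD10, a dehydrin, had 76.1 RPKM in the hybrid, against 67.0 in B. carinata and 237.0 in B. napus (-0.99). RD22 had 291.7 RPKM in the hybrid, against 280.7 in B. carinata and 579.0 in B. napus (-0.56), and RAB18 had 4.41 RPKM in the hybrid, against 8.87 in B. napus and 5.47 in B. carinata (-0.59). The rice LEA3 entry was the 1 unit past 2-fold, with 0.53 RPKM in the hybrid, against 18.8 in B. carinata and 0.63 in B. napus (-2.81).

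Core and linker histones had the highest family median, 0.50 over 32 units. Histones package DNA, and most of their transcripts are made while a cell copies it. The ratio was over 0 for 26 of the 32, none was 2-fold low, 3 were 2-fold high (0.739% over all units), and 18 were above both parents with no margin (20.6% over all units). The summed level was 25326 RPKM in the hybrid, against 17147 in B. napus and 21237 in B. carinata. The unit of the rice H2A variant 3 entry had 144.5 RPKM in the hybrid, against 109.8 in B. napus and 17.7 in B. carinata (1.17). The cotton H2B entry had 421.4 RPKM in the hybrid, against 74.9 in B. carinata and 331.5 in B. napus (1.05). These were above both parents, each closer to B. napus. H2AXb had 62.7 RPKM in the hybrid, against 59.0 in B. carinata and 1.18 in B. napus (1.03), and the H3-I entry of Volvox had 648.4 RPKM in the hybrid, against 298.8 in B. carinata and 411.8 in B. napus (0.87). DNA replication and repair proteins had a smaller shift, with a median of 0.13 and no unit of 32 past 2-fold. Histones are highly alike in sequence, so reads could be split among near-identical copies and their single units are uncertain.

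Cytosolic ribosomal proteins, the protein part of the ribosome, were shifted upwards by a small amount. The median of 164 units was 0.21, and 127 were over 0. With no margin, 69 were above both parents and 13 below both (20.6% and 21.9% over all units). The summed level was 128729 RPKM in the hybrid, against 106863 in B. carinata and 112453 in B. napus. At least 2-fold high were 2 units (1.22%, against 0.739% over all units). At least 2-fold low were 5 units (3.05%, against 6.2% over all units). RPL35AC (protein L35a-3) had 89.8 RPKM in the hybrid, against 84.6 in B. carinata and 0 in B. napus (1.07). RPL34A (L34-1) had 280.9 RPKM in the hybrid, against 208.8 in B. carinata and 69.8 in B. napus (1.01), but its ratio was -0.22 over sequences found in all 3 libraries. RPL36A had 5.55 RPKM in the hybrid, against 3.15 in B. napus and 2.03 in B. carinata (0.87). The Euphorbia L35 entry had 189.2 RPKM in the hybrid, against 133.5 in B. carinata and 97.9 in B. napus (0.70). These copies belong to large gene families whose reads could be shared. At the low end, RPS15F had 0 reads in the hybrid, against 3.64 RPKM in B. carinata and 7.05 in B. napus, at least 13.3-fold lower than the mean.

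Proteasome subunits and tubulins had medians above the mid-parent mean without any unit past 2-fold. Against B. carinata alone, their median log2 ratios were 0.009 and -0.003, and against B. napus alone 0.27 and 0.17. With no margin, 14 of 42 and 8 of 22 units were above both parents (20.6% over all units). Under 0 were 10 and 5 units (55.5% over all units). The 26S proteasome, which degrades ubiquitin-tagged proteins, had 32 of 42 units over 0 and a median of 0.18. PAB1, a core particle subunit, had 243.3 RPKM in the hybrid, against 149.9 in B. carinata and 180.1 in B. napus (0.56). RPT2A, a regulatory ATPase, had 130.8 RPKM in the hybrid, against 127.2 in B. carinata and 71.1 in B. napus (0.40). PBD1 had 278.9 RPKM in the hybrid, against 254.6 in B. carinata and 169.6 in B. napus (0.39). RPT5B, at 0.66, had no read in B. napus. Tubulins, the subunits of microtubules, had 17 of 22 units over 0 and a median of 0.19, which was -0.002 with median-of-ratios scaling, under which the median of all units was -0.22. TUBB7 had 91.8 RPKM in the hybrid, against 44.5 in B. carinata and 91.4 in B. napus (0.43). TUBB1 had 54.0 RPKM in the hybrid, against 48.7 in B. napus and 33.8 in B. carinata (0.38). The most abundant of those named, TUBB3, had 1299 RPKM in the hybrid, against 1327 in B. carinata and 810.8 in B. napus (0.28). Relative to the median of all units, proteasome subunits stood 0.22 and tubulins 0.24 higher, and under the 15 alternatives these ranged over 0.161 to 0.254 and 0.108 to 0.244.

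DNA methylation and small RNA silencing proteins had a median of 0.21 over 25 units, with 18 over 0. Against each parent, the median log2 ratio was -0.10 over B. carinata and 0.81 over B. napus. At least 2-fold higher in B. carinata than in B. napus were 11 units, and 0 were the other way. With no margin, 8 of the 25 were above both parents (20.6% over all units). AGO9, an argonaute that loads small RNAs around the germ line of the ovule, had 65.3 RPKM in the hybrid, against 30.4 in B. carinata and 26.8 in B. napus (1.16). Its read ratio was 2.56 with a 95% interval of 2.44 to 2.67. AGO4, the main argonaute of RNA-directed DNA methylation, had 340.6 RPKM in the hybrid, against 215.8 in B. carinata and 217.4 in B. napus (0.65). AGO10, of meristem maintenance, had 81.1 RPKM in the hybrid, against 61.1 in B. carinata and 37.2 in B. napus (0.71). DRM2, the methyltransferase of the same pathway, had 34.8 RPKM in the hybrid, against 10.2 in B. napus and 33.4 in B. carinata (0.65). The argonautes named here were above both parents by various amounts, and DRM2 stood at the level of B. carinata. Under 0 were 7 of the 25 units. DCL2, a Dicer-like nuclease, was the 1 unit at least 2-fold low, with 3.16 RPKM in the hybrid, against 6.01 in B. carinata and 11.1 in B. napus (-1.20).

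MADS-box proteins, which set floral organ and fruit identity, had a median of 0.16 over 24 units. Of these, 10 were above both parents with no margin (20.6% over all units). The median was -0.10 with no minimum level beyond 1 read. The Sinapis entries of AP1 and AGL8 had the highest ratios of the 24. The name pattern of the family missed TT16, which was higher (1.53), and SEP1, SEP2 and SEP3, with ratios of 0.58, 0.46 and 0.18. AP1 of Sinapis alba had 15.96 RPKM in the hybrid, against 5.78 in B. napus and 9.04 in B. carinata (1.01). Both AP1 entries summed to 81.4 RPKM in the hybrid, against 68.2 in B. napus and 63.0 in B. carinata (0.31). The AGL8 homolog of Sinapis alba had 39.9 RPKM in the hybrid, against 16.1 in B. carinata and 22.9 in B. napus (0.996). Both belong to the group that promotes floral meristem fate and fruit growth. The Arabidopsis AGL8 entry had 32.2 RPKM in the hybrid, against 17.2 in B. carinata and 22.9 in B. napus (0.66). AGL1, a fruit opening gene, had 81.4 RPKM in the hybrid, against 38.8 in B. carinata and 64.5 in B. napus (0.65). SVP, a repressor of flowering, was the 1 low unit, with 8.25 RPKM in the hybrid, against 6.75 in B. carinata and 29.9 in B. napus (-1.07).

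Aquaporins, aspartic proteases and metallothioneins completed the high end. Aquaporins, the water channels, had a median of 0.26 over 24 units but also 4 low ones (16.7%, against 6.2% over all units). PIP1-3 had 183.9 RPKM in the hybrid, against 156.3 in B. carinata and 60.8 in B. napus (0.75). TIP4-1 had 105.6 RPKM in the hybrid, against 60.7 in B. carinata and 68.6 in B. napus (0.70). PIP2-5 was likewise above both parents, with 203.6 RPKM in the hybrid, against 120.7 in B. napus and 147.0 in B. carinata (0.60). The family median was -0.11 with no minimum level beyond 1 read. Among the low members, TIP1-3, a pollen tonoplast channel, had 0.15 RPKM in the hybrid, against 0.04 in B. carinata and 10.8 in B. napus (-2.47). Of 7 aspartic proteases, 5 were above both parents with no margin (median 0.22, but -0.0087 with no score ratio), and APA3 had 32.6 RPKM in the hybrid, against 15.3 in B. napus and 12.5 in B. carinata (1.17). The aspartic proteinase-like protein At1g65240 had 36.9 RPKM in the hybrid, against 27.3 in B. carinata and 20.1 in B. napus (0.62). Metallothioneins bind metals and had a median of 0.24 over 7 units, which was -0.31 with median-of-ratios scaling, -0.49 with no minimum level and -0.05 with a score ratio of 0.8. The Brassica rapa type 2 entry had 6863 RPKM in the hybrid, against 6606 in B. napus and 1823 in B. carinata (0.70). The BIF98 entry was low, with 4.46 RPKM in the hybrid, against 1.20 in B. napus and 57.0 in B. carinata (-2.46).

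The 21 units at least 2-fold above both parents came from many families, 4 of them plastid-encoded, and some are named here after their values were seen. ATHB-21, a homeodomain-leucine zipper regulator, had 19.7 RPKM in the hybrid, against 1.91 in B. carinata and 2.74 in B. napus (2.64), with a read ratio of 8.37 and a 95% interval of 6.05 to 11.8. FPF1, flowering-promoting factor 1, had 11.4 RPKM in the hybrid, against 0.69 in B. carinata and 2.69 in B. napus (2.21). Its Sinapis entry also lay above the mean, with 42.9 RPKM in the hybrid, against 10.2 in B. carinata and 24.2 in B. napus (1.27). CEL2, an endoglucanase of the cell wall, had 90.8 RPKM in the hybrid, against 13.4 in B. carinata and 38.7 in B. napus (1.76). WOX9, a homeobox protein of embryo and meristem growth, had 39.7 RPKM in the hybrid, against 18.8 in B. carinata and 15.98 in B. napus (1.14). RAP2-3, an ethylene-responsive factor of low-oxygen responses, was the most abundant nuclear one. It had 318.8 RPKM in the hybrid, against 134.3 in B. carinata and 157.4 in B. napus (1.12), but its ratio was 0.37 with the sequence of highest mean alone. TT16, a MADS-box regulator of the seed coat, had 6.92 RPKM in the hybrid, against 1.66 in B. napus and 1.82 in B. carinata (1.53). The S13 entry of the S-locus glycoproteins was above the mean but not 2-fold above both parents, with 95.1 RPKM in the hybrid, against 9.37 in B. carinata and 65.4 in B. napus (1.32), its read ratio was 1.26, and its log2 ratio was -0.26 over sequences found in all 3 libraries.

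Organelle-encoded entries made up a large part of the high units. By family, 14 of the 60 were plastid-encoded and 4 mitochondrially encoded. Mitochondrial ribosomal protein S12, also high (1.35), was filed by its name under organelle ribosomal proteins and is in neither count. Plastid genes code for parts of the photosystems, the NADH dehydrogenase-like complex, the plastid ribosome and RNA polymerase. For organelle genes the mid-parent mean is a reference level, not an additive expectation, and the parent that gave the organelles is not stated. The 54 plastid units split to both sides, with a median of 0.04. High and low were 14 each (25.9%, against 0.739% high and 6.2% low over all units). The rps3 entry had 3.20 RPKM in the hybrid, against 3889.7 in B. napus and 2.55 in B. carinata (-8.86), the lowest ratio of all units. The ndhA entry had 0.37 RPKM in the hybrid, against 0.09 in B. carinata and 854.6 in B. napus (-8.29). At the other end, the ndhF entry of Olimarabidopsis had 116.7 RPKM in the hybrid, against 0.31 in B. napus and 25.8 in B. carinata (3.07), the highest ratio of all units. The matK entry of Sinapis had 1679 RPKM in the hybrid, against 596.2 in B. carinata and 12.3 in B. napus (2.46), and the ndhC entry had 373.6 RPKM in the hybrid, against 143.0 in B. carinata and 0.50 in B. napus (2.36). In each of these 5 entries the hybrid lay nearer to B. carinata than to B. napus on the log2 scale.

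Sequences of the same plastid gene were matched to entries of different species, so reads of a gene could lie in several units. Entries of the same gene were therefore also summed. Of 34 plastid genes, 11 were then high and 7 low, with a median of 0.08. The ratio of ndhF was then 0.18 instead of 3.07, and that of ndhH -1.79 instead of -7.06, whereas matK stayed at 2.29 and atpA at 1.57. Mitochondrially encoded proteins, many of them subunits of the respiratory chain, had a median of 0.20 over 22 units, with 4 high and 1 low. The median was -0.002 with median-of-ratios scaling. The entries of most sequences were the uncharacterized AtMg00310, AtMg01250, AtMg00810 and AtMg00860, which merged 49, 26, 23 and 13. Their ratios were -0.30, -0.02, -0.75 and -0.71, and whether all their sequences are mitochondrial was not tested. ND5 had 206.0 RPKM in the hybrid, against 89.9 in B. carinata and 54.5 in B. napus (1.499), but its ratio was 0.43 with a score ratio of 0.8. ND4 had 191.3 RPKM in the hybrid, against 116.5 in B. carinata and 39.7 in B. napus (1.28). COX1 had 20.2 RPKM in the hybrid, against 12.8 in B. carinata and 2.50 in B. napus (1.29). All 3 were lowest in B. napus.

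**Figure D5:**
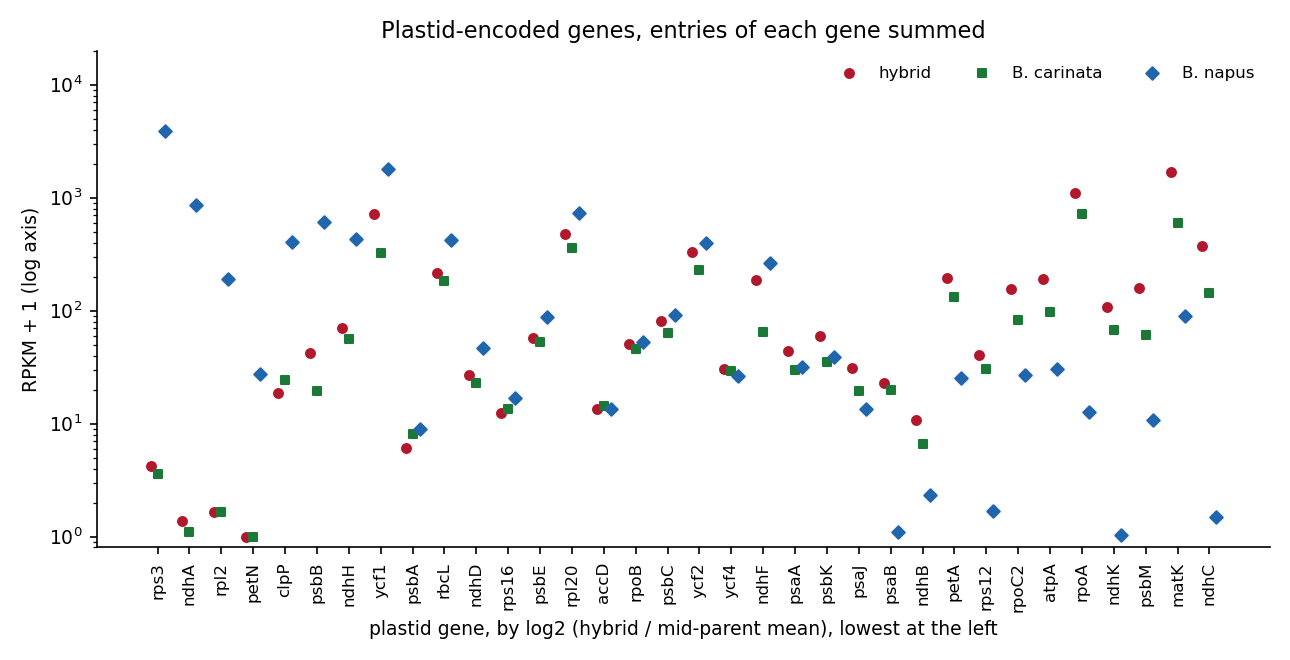
The level of 34 plastid genes is plotted for each library as RPKM + 1 on a log axis after entries of each gene were summed, ordered from the lowest log2 ratio of hybrid over mid-parent mean to the highest (red circles hybrid, green squares B. carinata, blue diamonds B. napus). At the low end the hybrid and B. carinata lie far below B. napus, and at the high end both lie above it.

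The next families held few units past 2-fold. Pentatricopeptide repeat proteins, which edit and process organelle RNA, were the largest family. Their median was -0.16 over 311 units, with 1 unit past 2-fold, At3g60960, which had 2.02 RPKM in the hybrid, against 20.7 in B. carinata and 0 in B. napus (-1.91). Their quartiles were -0.33 and -0.02, and 243 of the 311 lay under 0 (55.5% over all units). With no margin, 105 were below both parents and 35 above both (21.9% and 20.6% over all units). Nuclear subunits of the mitochondrial respiratory chain had a median of 0.11 and no unit of 45 past 2-fold. Leucine-rich repeat receptor kinases had a median of 0.01 with 1 low unit of 78, and cyclins and cyclin-dependent kinases a median of 0.05 with 1 low unit of 66. That unit was SMR1, a cell cycle inhibitor, with 14.9 RPKM in the hybrid, against 34.4 in B. carinata and 45.6 in B. napus (-1.37), below both parents. Starch enzymes, mitogen-activated protein kinases, calcium-dependent kinases and heat stress transcription factors had no unit past 2-fold. The 4329 units with no family included 165 low and 20 high ones, with a median of -0.02.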

How the data were processed

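Per the file headers, the authors deposited raw read counts and RPKM for each assembled sequence of a single table, with each library's total reads. The assembler, aligner and counter were not stated in the labels or headers. The deposited RPKM equalled count divided by sequence length and library total within 0.001 RPKM for all 472989 values. The alignment score of the best hit in the general protein database and in Swiss-Prot was deposited beside each sequence, per the file headers, with no search tool named.

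From these values, RPKM was summed per Swiss-Prot entry where the Swiss-Prot score was at least 0.6 of the other score. Units with 5 RPKM in the hybrid or the mid-parent mean were kept, and log2 ratios used a pseudocount of 1 RPKM. Of 81150 sequences with a Swiss-Prot hit, 64454 passed the score rule. A unit held a median of 6 sequences and at most 212, so homeologous and near-identical copies were merged. An entry of another species is a best match, not the identity of the Brassica gene, and copies of a protein can be split between entries. Families were assigned by patterns in product names and held 3786 units (46.7%). The members and lists were chosen with earlier results of these data known. The patterns were corrected after matches and values were seen, and 7 families were added then.

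Families with at least 6 units were ranked by median. The 10 lowest and 10 highest are described with up to 4 units each, furthest from the mean in the family's direction. Other families are given with up to 2 units. The 10 lowest and 10 highest units of at least 20 RPKM could also be named, and further units are said to be chosen after their values were seen, as were all members of the families added then. Read ratios of hybrid over mid-parent carry exact conditional binomial 95% intervals, scaled by library totals. A unit with 0 reads in the hybrid was bounded with 3 reads in that library. With 1 library per group, no test was run. Alternatives changed the pseudocount, minimum level, scaling (edgeR 4.0.16 TMM factors or median of ratios of the counts), parental mean, summing, score rule and family patterns. Computation used Python 3.11.15, numpy 2.4.6, pandas 2.3.3, SciPy 1.17.1, matplotlib 3.10.9 and R 4.3.3. The calculation of the ratios was run on simulated reads with planted changes and counting error alone. Such reads hold no variation between plants or libraries and no reads split among copies, so the run does not bear on either.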

Additional observations from a re-analysis of the deposited data

Results flagged for a closer look

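Sequences outside the units described held a signal that the comparisons above do not use. They had no accepted Swiss-Prot entry or belonged to units below the minimum level. Of 98576 such sequences, 18830 had 5 RPKM or more in the hybrid or the mid-parent mean. At least 2-fold above the mean were 1250 of them (6.64%), against 1263 (6.71%) at least 2-fold below, and their median log2 ratio was 0.11. Only 2 sequences outside the units had reads in the hybrid and none in either parent, and they held 84 reads, or 0.00031% of the hybrid library.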

How the results depend on the processing

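In all 15 alternatives, 12 planned and 3 chosen after seeing the data, more units lay at least 2-fold below the mean than above it. All except the geometric parental mean kept the arithmetic mean, with which 2-fold below is easier to reach than 2-fold above. A pseudocount of 5 RPKM gave 29 units above and 322 below the mean, and 10 above and 35 below both parents. With no minimum beyond 1 read, 96 were above the mean and 41 above both parents, with an all-unit median of -0.080. A minimum of 20 RPKM gave 35 above and 233 below the mean, 11 above and 46 below both parents, and a median of 0.0034. TMM scaling gave 176 above the mean, 52 above and 53 below both parents, a median of 0.26 and a beta-galactosidase median of 0.056. Median-of-ratios scaling gave 39 above the mean, 12 above both parents, a median of -0.22 and a tubulin median of -0.0018. The geometric parental mean gave 202 above and 301 below, a median of 0.023, and ratios of 0.42 for the maize chlorophyll a-b binding protein 1 entry and 0.90 for the Petroselinum flavanone 3-dioxygenase entry. Taking the sequence of highest mean per entry gave 124 above the mean, 32 above and 65 below both parents, a median of 0.018, and 28 families with medians at least 0.2 below that of all units. Summing reads scaled by library total alone gave a median of -0.034. Sequences found in all 3 libraries gave a median of -0.033 and ratios of -0.22 for L34-1 and -0.26 for the S13 S-locus glycoprotein entry. The ratio of CYP86B1, 29.5 RPKM in the hybrid, against 155.5 in B. carinata and 20.9 in B. napus, was -1.55 and turned to 0.35 with a score ratio of 0.8. With no score ratio, the ratio of mitochondrial ribosomal protein S12 was -0.19 instead of 1.35 and that of the rice B3 entry Os02g0598200 was 0.013 instead of -1.48. With entries of the same name summed, a Brassica campestris glucan endo-1,3-beta-glucosidase entry had 0.13 instead of -2.64 and DFRA had 0.038 instead of -1.13. The cause of these reversals was not tested.

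Of 215 named units past 2-fold, 206 kept their direction and 127 stayed past 2-fold in every alternative that gave a value, which was fewer than 15 for many. Of 28 families followed, 24 kept the sign of their median relative to all units in every alternative that gave a value. The exceptions were aquaporins, metallothioneins, MADS-box proteins and the cold and dehydration proteins. No paired analysis was possible because each group was 1 library and the labels give no shared replicate numbers. Counting error limits units of few reads: 16 units had no read in the hybrid.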
